A study of Mus musculus with 6 samples.

Results

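Complement is the plasma protease cascade that coats and lyses microbes, and the liver makes most of its soluble components. The 9 complement genes described here (C3, C4b, C6, C8a, C8b, C8g, C9, Cfb and Hc, the mouse gene for C5) were taken by symbol from the 40824 gene rows of a read count table of mouse hepatocyte nuclei, and 8 of them had enough reads to be tested. They stand in for the 3 activation routes and the lytic end of the cascade, and 46 further complement genes in the table served as the rest of the pathway.

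In this cascade the classical and lectin routes cleave C4, whose fragment joins one of C2 into an enzyme that cleaves C3, and the alternative route builds a like enzyme from C3 and factor B. The C3 fragment then allows C5 to be cleaved, and C5b gathers C6, C7, C8 and many copies of C9 into a pore called the membrane attack complex. C8 is a trimer of an alpha, a beta and a gamma chain from separate genes, and hepatocytes are known as the chief source of nearly all of these proteins, several of which rise in the acute phase response.

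The study profiled wild-type (WT) female C57BL/6J mice mated at about 8 weeks of age at 3 stages: G0 and G14.5 (days of gestation) and P7L (day 7 after birth, lactating). Each stage had 1 library of nuclei labelled as from liver tissue and 1 labelled as from perfusion, so there were 6 libraries and 2 per stage. Single nuclei were sequenced by Smart-seq3xpress, a plate method that reads along whole transcripts. The labelled protocol describes collagenase digestion, Percoll enrichment and hand picking of hepatocytes. It names no animals and gives no number of animals per library, so p-values measure only the spread between these libraries, and a library may pool mice or hold a single mouse.

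The libraries held 184 to 308 nuclei, 1567 in all, and 226030591 to 379767336 reads each, with a median per nucleus between 731494.5 and 1191576.0 reads. Reads of 10 hepatocyte markers made up 1.585% to 1.84% of each library, and all 10 were detected. For each of 9 other cell classes, 0 nuclei exceeded 1% of reads in its marker list, and the highest such share of a library was 0.003804%, for endothelial genes in the perfusion library at G0. No nucleus name was shared between libraries and no pair of nuclei had identical counts. The share of hepatocyte markers was lowest in the perfusion library at G0, where 30 of 184 nuclei lay under 1%.

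C9 and C3 were the members whose levels differed between stages, and they did so in different patterns. Promoter sequences of both are shown here with that of Hc, the member whose level varied least, because the 3 genes carry the stage results. Each run is a RefSeq window (GRCm38.p6) from 250 bases before to 50 bases after an annotated start, 5′ to 3′ on the gene's strand. Capitals mark matches on either strand to the C/EBP motif TTGCNNAA, to the HNF4 motif CAAAGTCCA with at most 1 mismatch, to the palindromic HNF1 motif with at most 2 mismatches and to the STAT motif TTCNNNGAA.
C9 at chr15:6445096-6445395, plus strand: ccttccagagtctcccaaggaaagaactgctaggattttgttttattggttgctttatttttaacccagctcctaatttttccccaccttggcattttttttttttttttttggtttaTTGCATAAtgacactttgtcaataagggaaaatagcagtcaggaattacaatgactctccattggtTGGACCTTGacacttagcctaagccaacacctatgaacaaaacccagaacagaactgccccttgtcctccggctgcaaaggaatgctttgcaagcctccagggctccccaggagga
C3 at chr17:57228087-57228386, minus strand: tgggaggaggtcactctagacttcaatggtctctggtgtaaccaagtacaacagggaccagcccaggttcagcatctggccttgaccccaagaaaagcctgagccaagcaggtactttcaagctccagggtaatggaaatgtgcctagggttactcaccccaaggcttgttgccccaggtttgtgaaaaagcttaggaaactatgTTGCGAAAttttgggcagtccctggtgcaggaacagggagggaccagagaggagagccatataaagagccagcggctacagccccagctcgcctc
Hc at chr2:35061363-35061662, minus strand: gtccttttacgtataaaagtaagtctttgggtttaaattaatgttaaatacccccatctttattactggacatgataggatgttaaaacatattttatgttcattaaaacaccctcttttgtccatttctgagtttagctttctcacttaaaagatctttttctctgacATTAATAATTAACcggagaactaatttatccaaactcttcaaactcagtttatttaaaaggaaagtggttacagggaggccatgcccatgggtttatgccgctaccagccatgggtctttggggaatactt
The capitals in C9 are a C/EBP match at bases -132 to -125 from the start and an HNF4 match with 1 mismatch at -66 to -58. Those in C3 are a C/EBP match at -45 to -38, and those in Hc an HNF1 match with 1 mismatch at -81 to -69.

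Windows were found for 7 of the 9 members, with 2 windows for C8g, and C4b and Cfb had none. Among these windows the C/EBP motif was matched in C3 and C9 only, against 10.8% of all 32544 windows. The STAT motif was matched in C8a alone (8.33% of all windows), the HNF1 motif in Hc alone (1.37%), and the HNF4 motif in C8g and C9 (8.51%). The short glucocorticoid receptor motif TGTTCT was matched in C8g and C9 (18.9%). A shorter HNF1 motif, GTTAAT, was matched in C8a, C8b and Hc (7.13%). The HNF4 core CAAAG was matched in C6, C8b, C8g, C9 and Hc (54%). A match describes letters in a window and is no evidence of binding.

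C4b codes for C4, the component that the classical and lectin routes cleave, and lies at chr17:34728380-34743882 (GRCm38, minus strand). Its normalised level, in CPM (read counts scaled to a common library size with edgeR's TMM factors), was 230 in the tissue and 187 in the perfusion library for G0, 171 and 229 for G14.5, and 161 and 179.5 for P7L. Both P7L libraries lay below both G0 libraries, and G14.5 overlapped with both stages. The higher of the 2 libraries was the tissue one at G0 and the perfusion one at the other stages. The log2 fold change was -0.30 (SE 0.187, 95% interval -0.738 to 0.141) at P7L against G0, with an adjusted p of 0.398 in edgeR's quasi-likelihood test. C4b shared 34.57% of its 50-base stretches with its copy C4a in the GENCODE M21 transcripts, so reads can be split between the pair. C4a held 11989 reads over all libraries and C4b 327713.

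C3, the protein on which all activation routes converge, had its highest level for G0, an intermediate level for G14.5 and its lowest for P7L. The gene lies at chr17:57203970-57228136 (minus strand). Its level was 506.5 CPM in tissue and 497 in perfusion for G0, 259 and 297 for G14.5, and 165 and 147 for P7L. The 3 stages did not overlap, and the libraries of a stage lay close together in comparison with the steps between stages. C3 fell by 0.85 on the log2 scale from G0 to G14.5 (SE 0.136, adjusted p = 0.0104, edgeR), which is 1.8-fold lower. P7L was 3.22-fold below G0 (log2 -1.69, SE 0.139, adjusted p = 0.00383, edgeR) and 1.78-fold below G14.5 (log2 -0.83, SE 0.136, adjusted p = 0.0119, edgeR).

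The direction of the C3 differences was the same in both preparations. From G0 to G14.5 the log2 difference was -0.97 in tissue and -0.74 in perfusion, from G0 to P7L -1.62 and -1.76, and from G14.5 to P7L -0.65 and -1.02. Leaving out the tissue library at G14.5 ended the call at G14.5 against G0 (log2 -0.707, adjusted p 0.0865). The call at P7L against G14.5 was lost without the perfusion library at G14.5 (adjusted p 0.0811), without the tissue library at P7L (0.0543) and without the perfusion library at P7L (0.163), with log2 values of -0.695, -0.962 and -0.708.

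Cfb, the protease of the alternative route's C3-cleaving enzyme, was nearly absent from the table: 2 reads in 1 nucleus of the tissue library at G0, and 0 reads in the other 5 libraries. A count of 0 in libraries of 184 to 308 nuclei allows a share of nuclei with a read of up to 0.974% to 1.63%, for the sampling of nuclei within a library only. Of Cfb's 2825 exonic bases (chr17:34856374-34862518, minus strand), 79.5% lie within exons of Gm20547, an overlapping gene model on the same strand that itself held 0 reads. Whether reads were set aside there for touching both models was not tested, and no level of Cfb is reported. C2, the matching protease of the classical route, overlaps the same model over 42.77% of its exonic bases and stood at 0.680 to 3.09 CPM.

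Hc codes for C5, the component whose cleavage opens the lytic stage, and lies at chr2:34983331-35061438 (minus strand). Its level was 510 CPM in tissue and 499 in perfusion for G0, 519 and 544 for G14.5, and 508 and 522 for P7L. All 6 libraries lay within a factor of 1.09, the narrowest range of the 8 tested members. The fold change was 0.08 on the log2 scale at G14.5 against G0 (95% interval -0.184 to 0.335), 0.03 at P7L against G0 (-0.229 to 0.29) and -0.05 at P7L against G14.5 (-0.305 to 0.214). With library size as the only scaling, the values at G14.5 against G0 and P7L against G14.5 changed sign to -0.0439 and 0.156.

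C6, the first protein to join C5b, was the member with the lowest level per length that was still tested (chr15:4727175-4814967, plus strand). Its level was 13.7 CPM in tissue and 5.51 in perfusion for G0, 9.995 and 7.94 for G14.5, and 12.4 and 9.76 for P7L. The tissue library was the higher at each stage and the stages overlapped. The perfusion against tissue difference was -0.66 on the log2 scale (SE 0.314, unadjusted p = 0.0731, adjusted p = 0.971, edgeR). The next protein in the order of assembly, C7, was at 0.122 to 0.574 CPM in these nuclei and passed no test.

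The C8 chains had unlike levels. C8a (alpha chain, chr4:104815679-104876398, minus strand) was at 145 and 160.5 CPM for G0, 141 and 191 for G14.5, and 155 and 167 for P7L, in tissue and perfusion in turn. C8b (beta chain, chr4:104766317-104804548, plus strand), its neighbour on the chromosome, was at 16.9 and 27.7, 28.4 and 15.5, and 21.7 and 12.2 CPM in the same order. The perfusion library was the higher for C8b at G0 and the lower at the other stages, so the stages overlapped. Neither gene passed a stage test, and C8a's 95% interval at P7L against G0 was -0.271 to 0.425 on the log2 scale.

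C8g, the gamma chain and a lipocalin with no likeness to the other chains, lies at chr2:25498651-25501719 (minus strand), overlapping the span of Fbxw5 on the other strand with no shared exonic base. It was at 69.3 and 54.4 CPM for G0, 107 and 77.6 for G14.5, and 62.1 and 76.6 for P7L. Both G14.5 libraries were above both G0 libraries. The log2 fold change at G14.5 against G0 was 0.57 (SE 0.224, unadjusted p = 0.0372, edgeR) and did not pass the adjustment over all genes (adjusted p = 0.143, edgeR). Per length, the mean of the authors' normalised values put C8a at 2.996 to 8.495 times C8b and C8g at 4.773 to 12.73 times C8b over the 6 libraries.

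C9, the protein that polymerises into the wall of the pore, was the member with the widest range of levels, 15.6-fold from the lowest library to the highest. It lies at chr15:6445327-6498751 (plus strand). Its level was 102.5 CPM in tissue and 72.2 in perfusion for G0, 8.30 and 7.34 for G14.5, and 96.7 and 114 for P7L. Both G14.5 libraries lay far below the other 4, and the G0 and P7L libraries overlapped. C9 fell by 3.47 on the log2 scale from G0 to G14.5 (SE 0.242, adjusted p = 0.000423, edgeR), an 11.1-fold difference, and was 13.6-fold higher at P7L than at G14.5 (log2 3.76, SE 0.245, adjusted p = 0.000366, edgeR). P7L against G0 gave 0.29 (95% interval -0.227 to 0.811, adjusted p = 0.485, edgeR). In tissue and perfusion, the step from G0 to G14.5 was -3.62 and -3.30, and that from G14.5 to P7L was 3.54 and 3.96.

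**Figure D1:**
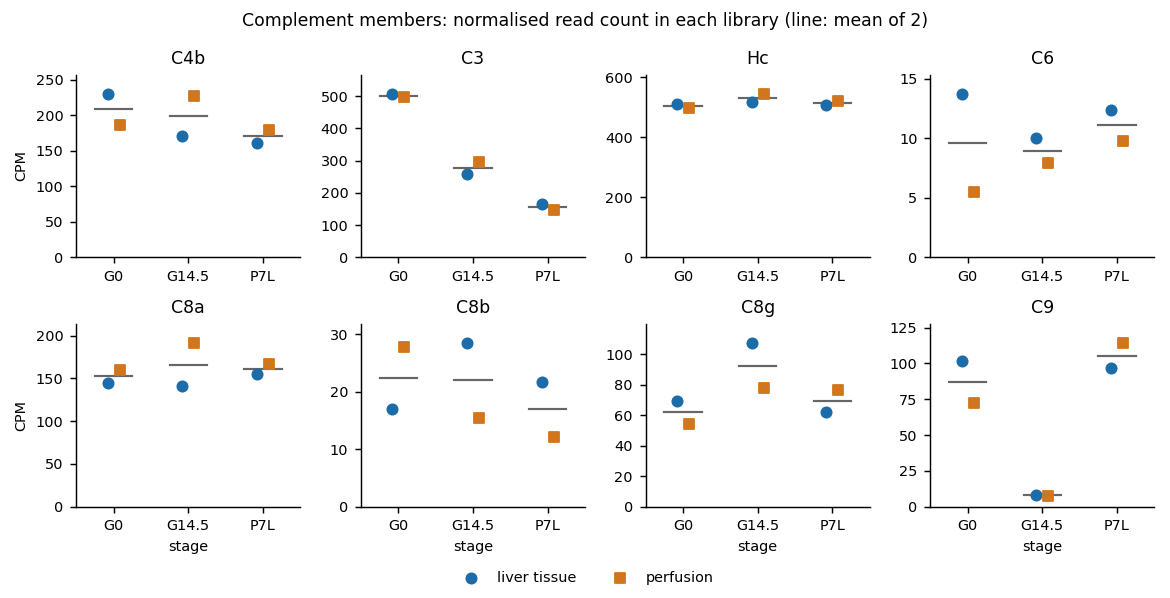
Normalised read count (CPM, linear axes from 0) of the 8 tested members at each stage, with a circle for the liver tissue library, a square for the perfusion library and a line at the mean of the 2. C9 is at 7.34 and 8.30 CPM at G14.5 and above 70 CPM elsewhere, C3 steps down from 497 and 506.5 CPM to 147 and 165 CPM, and Hc stays between 499 and 544 CPM.

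At G14.5 against G0, 2 of the 8 tested members were called lower (C9 and C3) and 0 higher, at an adjusted p under 0.05. Over all 15015 genes tested, 11.9% were called in that comparison, 5.01% lower and 6.93% higher. At P7L against G0, 1 of 8 was called (C3, lower), beside 2.92% of all genes, with 1.36% called lower and 1.56% higher. At P7L against G14.5, C9 was called higher and C3 lower, beside 9.26% of all genes, of which 4.2% of the tested genes were higher and 5.06% lower. The median log2 fold change of the 8 members was -0.0333, 0.0538 and -0.135 in the 3 comparisons, and that of all genes -0.0106, 0.00699 and -0.00237. The other 6 members (C4b, C6, C8a, C8b, C8g and Hc) were called in none of them.

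**Figure D2:**
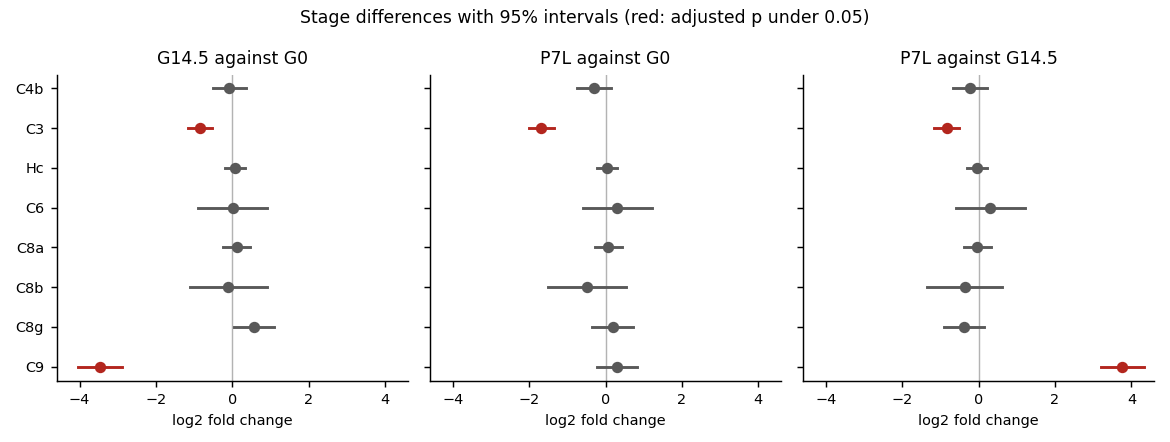
Log2 fold change of each tested member (point) with its 95% interval (line) in the 3 stage comparisons, red where the edgeR adjusted p is under 0.05. C9 stands at -3.47 at G14.5 against G0 and at 3.76 at P7L against G14.5, C3 is below 0 in all 3 panels, and the intervals of the other members are narrowest for Hc and widest for C6 and C8b.

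Perfusion against liver tissue gave 0 called genes in edgeR (0.0% of 15015) and hence 0 members, with 707 genes at an unadjusted p under 0.05. DESeq2 called 87 genes there and again no member. Stage differences of a member went in the same direction in both preparations for 4 of 8 members at G14.5 against G0, 3 of 8 at P7L against G0 and 7 of 8 at P7L against G14.5. Over all genes the shares were 68.1%, 66.1% and 70.6%.

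Levels of different genes can be set side by side only per length, and the authors' normalised values, divided by transcript length and scaled to a fixed total per nucleus, serve this. By the mean over nuclei, C3 had rank 1 among the members at G0 (32.6 in tissue and 31.5 in perfusion), rank 3 at G14.5 (15.4 and 16.7) and rank 5 or 6 at P7L (11.3 and 9.69). Hc was at 26.7 to 29.1 in every library and had rank 1 or 2. The ratio of C3 to Hc was 1.151 and 1.122 for G0, 0.5779 and 0.604 for G14.5, and 0.3933 and 0.3332 for P7L, in tissue and perfusion.

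On the same scale per length, C9 was at 13.4 and 13.2 for G0, 1.304 and 1.009 for G14.5, and 13.7 and 16.2 for P7L, so that Hc stood at 20.46 and 27.4 times C9 at G14.5 and at 1.793 to 2.133 times at the other stages. The sum of the 8 members was 128.2 and 116.3 for G0, 98.12 and 93.77 for G14.5, and 99.65 and 103.6 for P7L. Without C3 and C9 the sum was 82.15 and 71.55, 81.39 and 76.08, and 74.65 and 77.68, with no stage apart from the others. C6 ranked last of the 8 in all 6 libraries.

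Counts per nucleus show how each level was made up. To compare libraries of unlike depth, every nucleus was thinned to 250000 reads, which kept 1532 nuclei and left out 35. C3 and Hc had reads in 100% of the thinned nuclei of each library, C4b in 99.3% to 100% and C8a in 93.4% to 98.99%. C8g had reads in 64.6% to 94.2%, C8b in 39.2% to 55.1% and C6 in 21.5% to 34.5%. No nuclei of a cell class that should lack these genes were identified, so a share given by free RNA was not measured.

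C9 had reads in 78.9% of thinned nuclei in tissue and 66.9% in perfusion at G0, and in 84.4% and 85.1% at P7L. At G14.5 the share was 13.4% (exact Clopper-Pearson 95% interval 9.22 to 18.6) in tissue and 15.3% (11.5 to 19.9) in perfusion. Without thinning, the shares at G14.5 were 22.8% and 22.9%, and 83.7% to 91.6% in the other libraries. The share of nuclei with C9 reads was thus low in both G14.5 libraries and high in the other 4. Intervals cover only the sampling of nuclei within a library.

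Among the nuclei with C9 reads after thinning, the median was 15 reads in tissue and 9 in perfusion at G0, 4.5 and 2 at G14.5, and 13 in each P7L library. Without thinning, the 10% of nuclei with the most C9 reads held 96.9% of all C9 reads in each G14.5 library, and 58.4% to 65.03% in the other libraries. In such shares, nuclei with more reads in total weigh more. Up to 597 and 685 CPM was seen in single nuclei at G14.5, and 1224 to 1892 CPM in the other libraries. A few nuclei at G14.5 thus held nearly all of the C9 reads, though their highest levels were below the highest of the other stages.

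The C3 difference between stages was also seen in the median nucleus. It was 431 CPM in tissue and 464 in perfusion for G0, 200.5 and 223 for G14.5, and 173 and 138 for P7L, and the upper quartile at P7L (251 and 223) was below the lower quartile at G0 (242 and 282) in perfusion but not in tissue. The median of Hc per nucleus was 389 to 471 CPM in the 6 libraries, and the P7L libraries were the highest (463 and 471 CPM). Without thinning, the 10% of nuclei with the most reads of the gene held 27.7% to 33.4% of C3 reads and 28.2% to 35.6% of Hc reads.

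**Figure D3:**
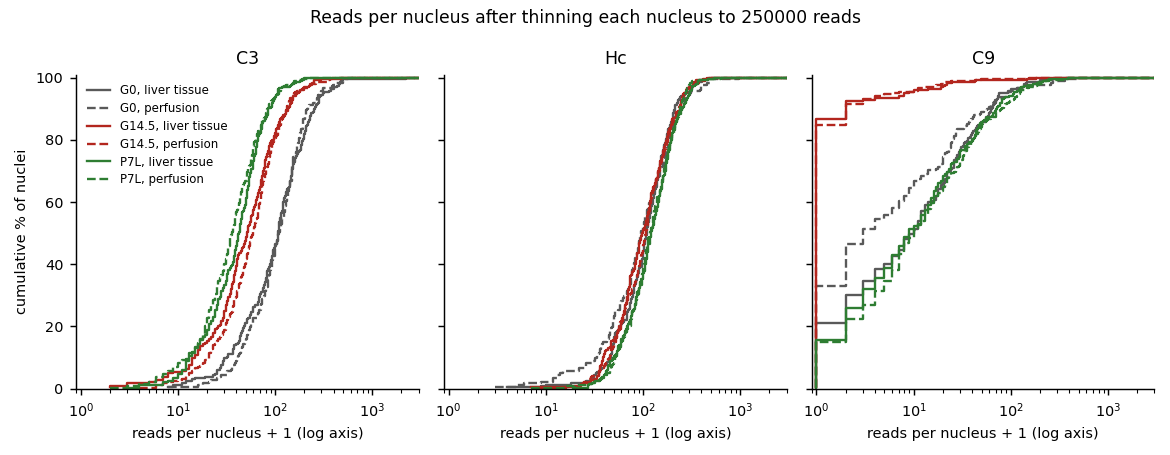
Cumulative share of nuclei (vertical axis, %) by reads per nucleus plus 1 (log axis) after thinning to 250000 reads, for C3, Hc and C9, with colour for the stage and a solid or dashed line for tissue or perfusion. The C9 curves of G14.5 begin above 80% because 13.4% and 15.3% of nuclei had any read, the C3 curves are set apart by stage, and the Hc curves lie close together.

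C6 and C8b were each concentrated in part of the nuclei at every stage. Without thinning, the 10% of nuclei with the most C6 reads held 84.7% to 92.9% of them. The median C6 level over nuclei was 0 to 1.46 CPM, although single nuclei reached 359 to 1823 CPM. For C8b the corresponding 10% held 61.4% to 70.6% of reads in 5 libraries and 86.3% in the perfusion library at G0. The corresponding share for C8a, the other chain of the complex from the same stretch of chromosome 4, was 34.2% to 52.2%.

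Over nuclei, rank correlations between the members were low. Spearman's rho between pairs of members, taken in each library over its 181 to 300 thinned nuclei, had its highest median over libraries for C4b with Hc (0.224, range 0.111 to 0.322), then for C3 with C4b (0.166, range 0.097 to 0.33). C3 with C6 gave a median of -0.00334. The highest median with Alb, the albumin gene, was for C8g (0.274, range 0.209 to 0.589). Few reads per nucleus, as for C6, weaken such values, so they do not show that members vary independently. Nuclei of a library share its preparation and depth, and these values are descriptions.

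Hepatocytes differ in expression along the lobule from the portal to the central vein, so each nucleus was given an index from 15 pericentral and 14 periportal genes, none of them a complement gene. The nuclei of each library were ordered by the index and split into 3 groups of equal size, called pericentral, middle and periportal. The reference genes, which are themselves part of the index, gave a pericentral minus periportal log2 difference of 3.77 to 5.36 for Cyp2e1 and of -5.05 to -3.09 for Cyp2f2.

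C6 was higher in the pericentral group in 6 of 6 libraries, also when the nuclei were split into 2 groups (1.11 to 3.54). The log2 difference of mean CPM was 3.19 in tissue and 2.83 in perfusion for G0, 2.40 and 1.84 for G14.5, and 3.82 and 3.65 for P7L. In the tissue library at G0, mean C6 was 46.98 CPM in the pericentral group, 18.5 in the middle and 5.14 in the periportal group. In the perfusion library at P7L these were 27.99, 2.27 and 2.23 CPM. Of the summed C6 level of a library, 63.8% to 86.5% lay in the pericentral group.

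Nuclei with at least 20 CPM of C6 numbered 91 of 1567, of which 71 were in the pericentral group and 10 in the periportal group. With 10 CPM as the limit there were 143 such nuclei, 63.6% of them pericentral, and with 50 CPM 65 nuclei, 80% of them pericentral. Their median level of Glul, the glutamine synthetase of the cells next to the central vein, was higher than that of the other nuclei in all 6 libraries. It was 522.5 against 2.33 CPM in the tissue library at G0 and 1448 against 22.5 CPM in the perfusion library at P7L, and 18.6 against 10.5 CPM in the tissue library at G14.5, the smallest such gap. Glul is one of the genes of the index.

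C9 was higher in the periportal group in both libraries of G0 and of G14.5, by an amount that depended on how the nuclei were split. With 3 groups the pericentral minus periportal log2 difference was -1.47 in tissue and -1.39 in perfusion for G0, -4.10 and -4.06 for G14.5, and 0.10 and 0.03 for P7L. Split into 2 groups, it was -0.793 and -1.39 for G0, -0.517 and -2.08 for G14.5, and -0.201 and 0.332 for P7L. The periportal side stayed the higher at G0 and G14.5, but the 2 preparations at G14.5 were then apart and G14.5 no longer stood below G0 in tissue. The P7L libraries had opposite signs in the split into 2 groups. Mean C9 at G0 was 118.5, 107 and 42.9 CPM from the periportal to the pericentral group in tissue, and 88.2, 151 and 33.6 CPM in perfusion. At G14.5 it was 14.48, 11.3 and 0.844 CPM in tissue, and 15.04, 3.64 and 0.903 CPM in perfusion, and at P7L it was highest in the middle group of both libraries (155 and 128 CPM).

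The C9 difference at G14.5 rests on few nuclei. Those with at least 20 CPM were 15 of 224 in tissue, 7 of them periportal and 1 pericentral, and 16 of 301 in perfusion, 10 periportal and 1 pericentral. At G0 they were 141 of 252 and 84 of 184, with 57 and 29 periportal and 25 and 16 pericentral. At P7L they were 180 of 308 and 192 of 298, with 55 and 62 periportal and 51 and 54 pericentral. Whether the dependence on position differs between stages was not tested. The median reads per nucleus of the pericentral and periportal groups were 671626 and 903989 in the tissue library at G0 and within a factor of 1.5 of each other in all libraries.

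The other members showed smaller differences. Mean C8b was higher in the pericentral group in 6 of 6 libraries, by 0.243 to 2.06, and in 4 of 6 when the nuclei were split into 2 groups. The largest value, in the perfusion library at G0, is a difference of means. In that library 16.39% of nuclei had at least 20 CPM of C8b in each of the pericentral and periportal groups. The median C8b levels of these groups were 2.15 and 1.65 CPM. C8a was higher in the pericentral group in 5 of 6 (-0.0116 to 0.646). C3 was lower there in 6 of 6, by at most 0.205, and in 5 of 6 when split into 2 groups. C4b (-0.76 to 0.217), C8g (-1.19 to 0.931) and Hc (-0.594 to 0.0976) had both signs.

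**Figure D4:**
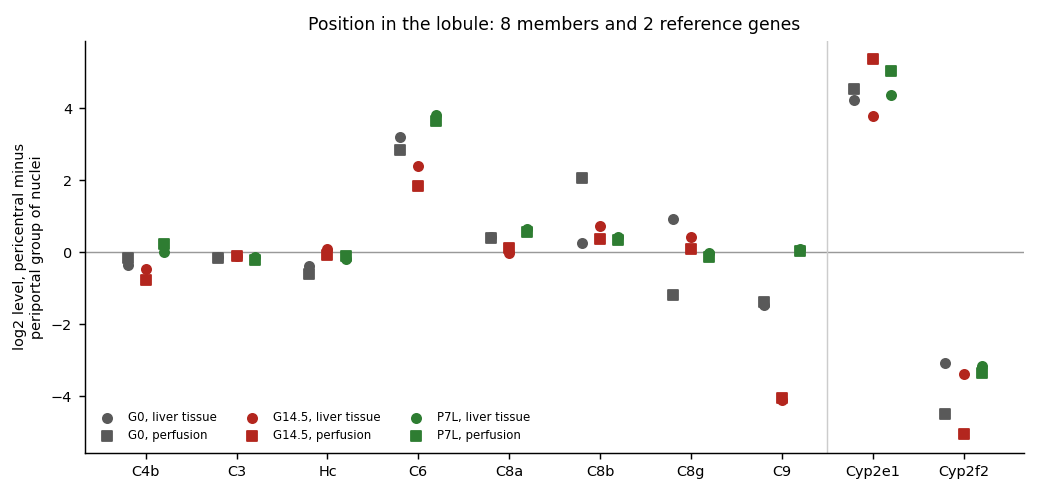
Log2 mean CPM in the pericentral group minus that in the periportal group of nuclei (vertical axis) for the 8 members and for Cyp2e1 and Cyp2f2, with 1 point per library, colour for stage and shape for preparation. C6 is above 1.8 in all 6 libraries, and C9 is below 0 at G0 and G14.5 and near 0 at P7L. The C9 values of -4.10 and -4.06 at G14.5 shrink to -0.517 and -2.08 when the nuclei are split into 2 groups.

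The rest of the pathway was taken from a list of 48 other complement genes, of which 46 were in the table and 42 were tested. At G14.5 against G0, 2 rose and 4 fell; at P7L against G0, 0 rose and 4 fell; at P7L against G14.5, 2 rose and 6 fell. Called in either direction were thus 6, 4 and 8 of 42, beside 11.9%, 2.92% and 9.26% of all genes tested. Their median log2 fold changes were 0.00899, -0.345 and -0.0511, and those of all genes -0.0106, 0.00699 and -0.00237. Perfusion against tissue gave 0 calls among them.

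Of the classical route, C1ra and C1s1, the proteases of the C1 complex, were called lower at G14.5, 2 of 10 tested. C1s1 was at 175 and 181 CPM for G0, 54.5 and 64.8 for G14.5 and 112 and 106 for P7L, so that the libraries of the 3 stages did not overlap. It fell by 1.58 on the log2 scale from G0 to G14.5 (adjusted p = 0.00198, edgeR) and was 0.87 higher at P7L than at G14.5 (adjusted p = 0.0168, edgeR). C1ra fell by 0.85 (adjusted p = 0.0469, edgeR) at G14.5. Like C9, C1s1 thus had its lowest level at G14.5, but its P7L libraries stayed below those of G0 (log2 -0.71, adjusted p = 0.0634, edgeR).

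Of the lectin route, Mbl1 and Mbl2, the mannose-binding lectins, were highest at G14.5 and lowest at P7L. Mbl2 was at 104 and 80.5 CPM for G0, 138 and 124 for G14.5, and 47.4 and 45.4 for P7L, and was called lower at P7L than at G0 (log2 -0.98, adjusted p = 0.033, edgeR) and than at G14.5 (-1.49, adjusted p = 0.00264, edgeR). Mbl1 was at 35.3 and 35.5 CPM for G0, 63.4 and 74.5 for G14.5, and 24.9 and 26.2 for P7L. It rose by 0.96 at G14.5 (adjusted p = 0.0256, edgeR). It was called lower at P7L than at G14.5 (log2 -1.43, adjusted p = 0.00644, edgeR). Mbl2 was not called at G14.5 against G0 (log2 0.51, adjusted p = 0.088, edgeR). Nor was Mbl1 at P7L against G0 (log2 -0.47, adjusted p = 0.233, edgeR).

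Among the 17 regulators tested, Cfi (factor I), the protease that inactivates C3b, was called lower at P7L. It was at 228 and 223 CPM for G0, 237 and 252 for G14.5, and 146 and 134 for P7L, with both P7L libraries below the other 4. Its log2 fold change was -0.69 at P7L against G0 (adjusted p = 0.0449, edgeR), beside -1.69 for C3 in the same comparison, and -0.80 at P7L against G14.5 (adjusted p = 0.0122, edgeR).

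Vtn (vitronectin), which keeps the assembling lytic complex out of membranes, was highest where C9 was lowest. It was at 114 and 89.1 CPM for G0, 275 and 189 for G14.5, and 90.6 and 86.04 for P7L. It rose by 1.18 at G14.5 (adjusted p = 0.00639, edgeR) and was lower again at P7L (log2 -1.36 against G14.5, adjusted p = 0.00361, edgeR). Serping1, the C1 inhibitor, fell at G14.5 (log2 -0.84, adjusted p = 0.0288, edgeR).

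**Figure D5:**
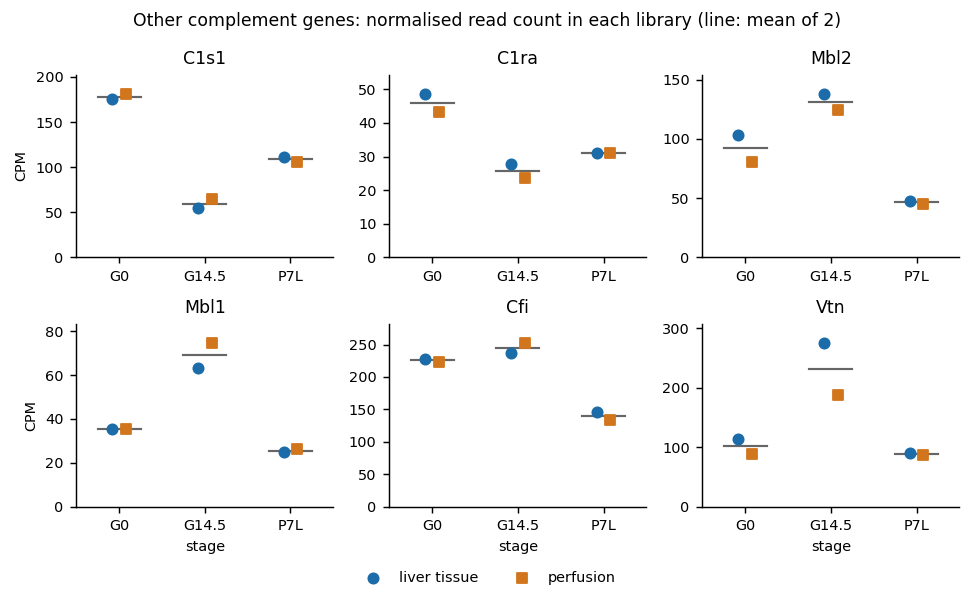
Normalised read count (CPM, linear axes from 0) of 6 complement genes outside the described set, with a circle for the liver tissue library, a square for the perfusion library and a line at the mean of the 2. C1s1 is lowest at G14.5, Vtn and the lectins Mbl1 and Mbl2 are highest there, and Cfi is lowest at P7L.

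The receptors C5ar1 and C5ar2, for the C5a fragment of Hc, were called in 1 comparison each on few reads. C5ar2 was at 2.35 and 6.52 CPM at G0 and 0.136 to 0.63 elsewhere (log2 -4.78 at P7L against G0, adjusted p = 0.0427, edgeR). C5ar1 was at 5.33 and 0.270, 11.02 and 4.10, and 0.175 and 0.172 CPM (log2 -5.05 at P7L against G14.5, adjusted p = 0.0301, edgeR). C5ar1 had reads in 9.09% to 21.9% of nuclei. The 12 macrophage markers, a class known for these receptors, all had reads and summed to 0.002241% and 0.001093% of reads for G0, 0.002742% and 0.001136% for G14.5, and 0.001999% and 0.0009943% for P7L. Their part in the receptor values was not tested.

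Of 21 regulators of hepatic complement and acute phase transcription, all tested, 1 rose and 1 fell at G14.5 against G0, 1 rose and 2 fell at P7L against G0, and 1 rose and 3 fell at P7L against G14.5. The shares of all genes called in these comparisons were 11.9%, 2.92% and 9.26%. Nfkbia, the NF-kappaB inhibitor, was at 45.4 and 45.05 CPM for G0, 15.6 and 20.4 for G14.5, and 32.6 and 37.3 for P7L, lowest where C9 was lowest. It fell by 1.34 at G14.5 (adjusted p = 0.0127, edgeR). Il6ra, the interleukin 6 receptor, rose at both stages against G0 (log2 0.64, adjusted p = 0.0175, and 0.73, adjusted p = 0.0313, edgeR). Hnf4a, a hepatocyte identity factor (log2 -0.73, adjusted p = 0.0369, edgeR), and Esr1, the oestrogen receptor (log2 -0.81, adjusted p = 0.0284, edgeR), fell at P7L against G0. Neither was called at G14.5 against G0. Hnf4a stood at log2 0.03 there (adjusted p = 0.893, edgeR) and Esr1 at 0.35 (adjusted p = 0.123, edgeR). Il6st fell at P7L against G14.5 (log2 -0.67, adjusted p = 0.0367, edgeR). Whether any of these genes bears on the complement levels was not tested.

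Of 25 other acute phase genes, 24 were tested. At G14.5 against G0, 8 rose and 3 fell, with a median log2 change of 0.611; at P7L against G0, 1 rose and 5 fell (-0.139); at P7L against G14.5, 4 rose and 9 fell (-0.598). Beside these, 11.9%, 2.92% and 9.26% of all genes were called, and the medians of all genes were -0.0106, 0.00699 and -0.00237. Cp (ceruloplasmin) was at 627 and 745.5 CPM for G0, 3425 and 3647 for G14.5, and 396 and 376.5 for P7L (log2 2.37 at G14.5 against G0, adjusted p = 0.000132, edgeR). Itih4 and Fgb likewise rose at G14.5 (log2 1.61, adjusted p = 0.00217, and 0.63, adjusted p = 0.0142, edgeR), and Mt1 rose by 1.38 (adjusted p = 0.000813, edgeR). Hamp (hepcidin) went the other way, at 1874 and 2397 CPM for G0, 205 and 134 for G14.5, and 750 and 702 for P7L (log2 -3.68 at G14.5 against G0, adjusted p = 0.000316, edgeR). C9 and Hamp were both lower at G14.5 than at G0, and Cp was higher. Itih3 fell at P7L against G0 (log2 -1.18, adjusted p = 0.0232, edgeR).

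The genes most like C9 and C3 over the 6 libraries were sought among 5743 other tested genes with a mean of at least 20 CPM. For C9 these were Mfsd2a (Pearson r of log2 CPM 0.9976), Zfp395 (0.9958) and Slc16a7 (0.9948). Mfsd2a, a lysophospholipid transporter, was at 127 and 104 CPM for G0, 5.305 and 5.098 for G14.5, and 113 and 140.5 for P7L. It too was low in both G14.5 libraries alone. Zfp395 went from 280 and 244 CPM to 148 and 142 and back to 267 and 264, a smaller range. For C3 they were Exoc5 (0.9952), Rhpn2 (0.9931) and Ncor1 (0.9929), and Rhpn2 stood at 55.9 and 58.5, 38.2 and 39.3, and 27.6 and 27.9 CPM. These coefficients were picked as the highest of many over 6 libraries and carry no test.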

How the data were processed

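The submitters' processing notes name featureCounts 1.5.3, HISAT2 2.1.0, Trimmomatic 0.39 and the mm10 (GRCm38) build; strand and overlap settings and the annotation are not given in the sources used here. The authors deposited whole-number read counts per gene and nucleus, not molecules. A second deposited table holds the authors' values per length and depth, treated here as a score. Nuclei took stage and preparation from their column names, and no doublet caller was run. Counts were summed per library and tested with edgeR 4.0.16 (R 4.3.3; quasi-likelihood F test, TMM, preparation and stage as terms, 2 residual degrees of freedom, two-sided, Benjamini-Hochberg adjusted p under 0.05). Genes tested passed filterByExpr and had 1 read in 5% of nuclei of at least 2 libraries. The fit was also run on counts simulated from its own estimates of spread. Such counts cannot show how it behaves with 2 real libraries per stage, and no result is drawn from them. The alternatives were RLE or no scaling factors, other filters, no preparation term, thinned or marker-selected nuclei, DESeq2 1.42.0, limma 3.58.1 (voom, and a fit of log2 authors' values, pseudocount 1 or 0.1) and leaving out each library. The replicate number of a library is its preparation, which pairs libraries across stages. The 20 CPM limit for C6 was chosen after the values were seen.

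The members and gene lists were chosen with earlier results of these data known. Named besides the members were up to 4 called pathway genes per role and up to 3 called genes per list and stage comparison with the smallest p, and the 3 genes most correlated with each of the 2 members of smallest p; C2, C4a, C7 and the zonation genes were added as context. Positions and shared 50-base stretches come from GENCODE M21 (GRCm38), promoter windows from RefSeq. Protein sequences were not used here, and some named pathway genes are not reported here.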

Additional observations from a re-analysis of the deposited data

Results flagged for a closer look

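C8b, the C8 beta chain, went in opposite directions in the 2 preparations between G0 and G14.5: the log2 difference was 0.752 in liver tissue and -0.834 in perfusion, each at least 0.5 in size, a limit chosen after the values were seen. The difference between the preparations was not tested, since 1 library per combination leaves no residual degree of freedom. C8b was at 16.9 and 28.4 CPM in tissue and at 27.7 and 15.5 CPM in perfusion at G0 and G14.5. In the perfusion library at G0 10% of the nuclei held 86.3% of the C8b reads, without thinning. There 1 nucleus reached 1220 CPM, while the median over nuclei was 1.75 CPM. The share of thinned nuclei with C8b reads was 39.2% and 48.7% in tissue, and 45.9% and 41.0% in perfusion, at G0 and G14.5.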

How the results depend on the processing

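Both C9 calls held in all 18 settings, with log2 values from -3.73 to -2.73 at G14.5 against G0 and from 2.88 to 4.04 at P7L against G14.5. The C3 call held in 17 of 18 settings at G14.5 against G0, 17 at P7L against G0 and 13 at P7L against G14.5. No sign change concerned a called value.

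DESeq2 called 3429, 1901, 2631 and 87 genes in the 4 comparisons (stage comparisons in the order G14.5 against G0, P7L against G0, P7L against G14.5, then preparation). At P7L against G0, filterByExpr alone gave 92 genes, no filter 227, and the authors' values 4 (pseudocount 1) and 205 (0.1). The authors' values with pseudocount 1 gave 1128 genes at G14.5 against G0. There C3 was lost at P7L against G0 (log2 -1.52, adjusted p 0.0522, leaving 0 members called) and, with both pseudocounts, at P7L against G14.5 (-0.57 and -0.609, adjusted p 0.0756 and 0.0568 by limma, leaving 1 member). The cause was not tested.

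Leaving out 1 library gave 662 to 1885 genes at G14.5 against G0, 46 to 609 at P7L against G0 and 450 to 2350 at P7L against G14.5, and 1 to 2 members called at G14.5 against G0 and at P7L against G14.5. The ranges of members that changed sign were, at G14.5 against G0, C4b -0.364 to 0.231, C6 -0.452 to 0.531, C8a -0.0362 to 0.262 and C8b -0.818 to 0.742; at P7L against G0, C4b -0.579 to 0.00893, C6 -0.148 to 0.827, C8a -0.02 to 0.17, C8b -1.2 to 0.373, C8g -0.184 to 0.521, C9 -0.00428 to 0.58 and Hc -0.0127 to 0.0726. At P7L against G14.5 they were C4b -0.457 to 0.0284, C8a -0.186 to 0.116 and C8b -0.801 to 0.0875, and by preparation C3 -0.102 to 0.0852, C4b -0.0769 to 0.289, C9 -0.343 to 0.0338 and Hc -0.00196 to 0.0533.

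Without the replicate block, that is without the preparation term, 2095, 578 and 1597 genes were called in the stage comparisons and the same number of members; C6 changed sign at G14.5 against G0 (-0.0987). Other sign changes of uncalled members at G14.5 against G0 were, with library size alone, C6 -0.108, C8a -0.00975 and Hc -0.0439; with thinned nuclei, C6 -0.183; with voom, C6 -0.00717; with marker-selected nuclei, C8b 0.0591; with the authors' values, C6 -0.223 and -0.315, C8a -0.0609 and -0.0655, and Hc -0.0534 and -0.0552 (pseudocounts 1 and 0.1). At P7L against G0 C6 changed sign with thinned (-0.0591) and marker-selected nuclei (-0.189). At P7L against G14.5 these were C8a 0.169 and Hc 0.156 with library size alone, C8a 0.0518 with thinned and C6 -0.417 with marker-selected nuclei, and with the authors' values C8a 0.176 and 0.189 and Hc 0.0893 and 0.0922. By preparation, C3, at 0.0006036 in the main fit, moved to -0.00241 (RLE), -0.0288 (library size), -0.00326 (no filter), -0.0126 (thinned), -0.0143 (marker-selected), -0.00242 (DESeq2), -0.0493 and -0.0537 (authors' values), C9 to 0.00268 (pseudocount 1) and Hc to -0.00494 (library size).

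With 2 libraries per stage, intervals such as -1.5 to 0.527 for C8b at P7L against G0 leave sizeable differences undetectable. Thinning changed the share of nuclei with reads beyond its 95% interval in 24 of 48 cases, and recomputing levels per length moved a member's rank in 9 of 48.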
